A study of Homo sapiens with 12 samples.

Results

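The BCL2 family genes described here are 10 genes that set the threshold of mitochondrial apoptosis, measured in K562 cells exposed to dasatinib. The members were the array probes annotated with BCL2L1, MCL1, BCL2L2, BCL2L11, BAX, BAK1, BAD, BID, BBC3 or PMAIP1 with a detection p-value, which compares a probe with negative controls, below 0.05 throughout the 3 arrays of some group. Of 21 annotated probes 18 passed, and they covered all 10 genes. In the whole series 17625 of 47314 probes passed, for 10208 genes. The remaining 3 member probes, ILMN_2258383 for BAX, ILMN_1720360 for BAD and ILMN_2259495 for BID, were detected on 3, 2 and 5 of 12 arrays and were not tested.

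K562 is a human cell line from chronic myeloid leukaemia that carries the BCR-ABL1 fusion kinase, and dasatinib inhibits ABL and SRC family kinases. Cells grown in 10% serum were given vehicle (0.2% DMSO) for 24 h or 100 nM dasatinib for 4 h, 8 h or 24 h, in each case in medium with 0.1% serum, and total RNA was hybridised to Illumina BeadChips with 3 arrays per group. Every group therefore combined its agent with a shift to low serum. The vehicle was sampled at 24 h alone, so an effect of the drug at the earlier times and of the shorter stay in low serum cannot be told apart, and all 3 comparisons with vehicle share the same DMSO arrays. All arrays come from 1 cell line, and no label states that replicate arrays stem from separate cultures, so p-values measure only their spread, which may be technical.

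The family has 3 kinds of member. Pro-survival proteins such as BCL-XL (BCL2L1), MCL-1 and BCL-w (BCL2L2) hold the effectors BAX and BAK in check at the mitochondrial outer membrane, and BH3-only proteins such as BIM (BCL2L11), NOXA (PMAIP1), PUMA (BBC3), BID and BAD bind the pro-survival proteins or act on the effectors. Effectors that oligomerise open the outer membrane and release cytochrome c, which starts caspase activation. In cells driven by BCR-ABL1, signalling through STAT5 is known to sustain BCL2L1 transcription, and kinase signalling through ERK is known to limit BIM protein.

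The arrays had a median signal of 134 to 160 and detected 17175 to 18927 probes each. Pearson correlations across the passing probes, which are not independent of each other, were 0.989 to 0.992 within groups and 0.941 to 0.986 between groups. All 6 K562 marker genes on the array (GATA1, TAL1, HBG1, HBZ, TFRC, LMO2) were detected on all 12 arrays. Of the markers of other cell types, CD3E, KRT5, MPO, ELANE and ITGAM were detected on no array, COL1A1 on 1, MS4A1 on 2, CD79A on 7 and CD14 on 10, whereas COL1A2 and EPCAM were detected on all 12. In these bulk samples, fewer cells with a transcript and less of it per cell cannot be told apart.

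Values below are log2 intensities after background correction and quantile normalization, given for arrays A, B and C of a group, and changes are differences of group means on that scale with the standard error (SE) of the limma fit. A probe was called at a Benjamini-Hochberg adjusted p under 0.05 over all 17625 probes. Probe intensities are not comparable between probes.

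Against DMSO, 5 of 18 member probes were called after 4 h of dasatinib, 8 after 8 h and 12 after 24 h. These calls include BCL2L1 ILMN_1742410 and, at 24 h, BAD ILMN_1685398. Both passed the detection filter only through the group where they are high, and both also enter the counts without overlap below. Over all probes tested the called share was 7.97% at 4 h, 24.7% at 8 h and 47.8% at 24 h, so a large part of all transcripts had also moved by 24 h. All 5 member calls at 4 h were lower in dasatinib, against a background of 4.47% called lower and 3.5% called higher. At 4 h limma called 0 member probes higher, and of the 7 with an unadjusted p under 0.05 BBC3 alone had a higher mean. At 8 h, 6 were lower and 2 higher, against 12.3% of all probes in each direction. At 24 h, 10 were lower and 2 higher, against 24.8% of all probes called lower and 23% called higher. The dasatinib arrays of 7, 10 and 13 member probes did not overlap DMSO at 4 h, 8 h and 24 h, against 24.8%, 40.8% and 56.8% of all probes. The median member change was -0.15 at 4 h, -0.18 at 8 h and -0.62 at 24 h, whereas the median over all probes was 0.01, 0.01 and -0.01. By gene, BCL2L1, MCL1 and PMAIP1 had a lower probe at 4 h. BCL2L1, PMAIP1 and BID did so at 8 h, when BCL2L11 and BAD had a higher one, and at 24 h BCL2L1, MCL1, PMAIP1, BID, BAX and BAK1 were lower and BAD was higher. BCL2L2 and BBC3 had no called probe at any time. Across the 4 groups together, a moderated F test called 12 of 18 member probes, against 50.1% of all probes.

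**Figure D1:**
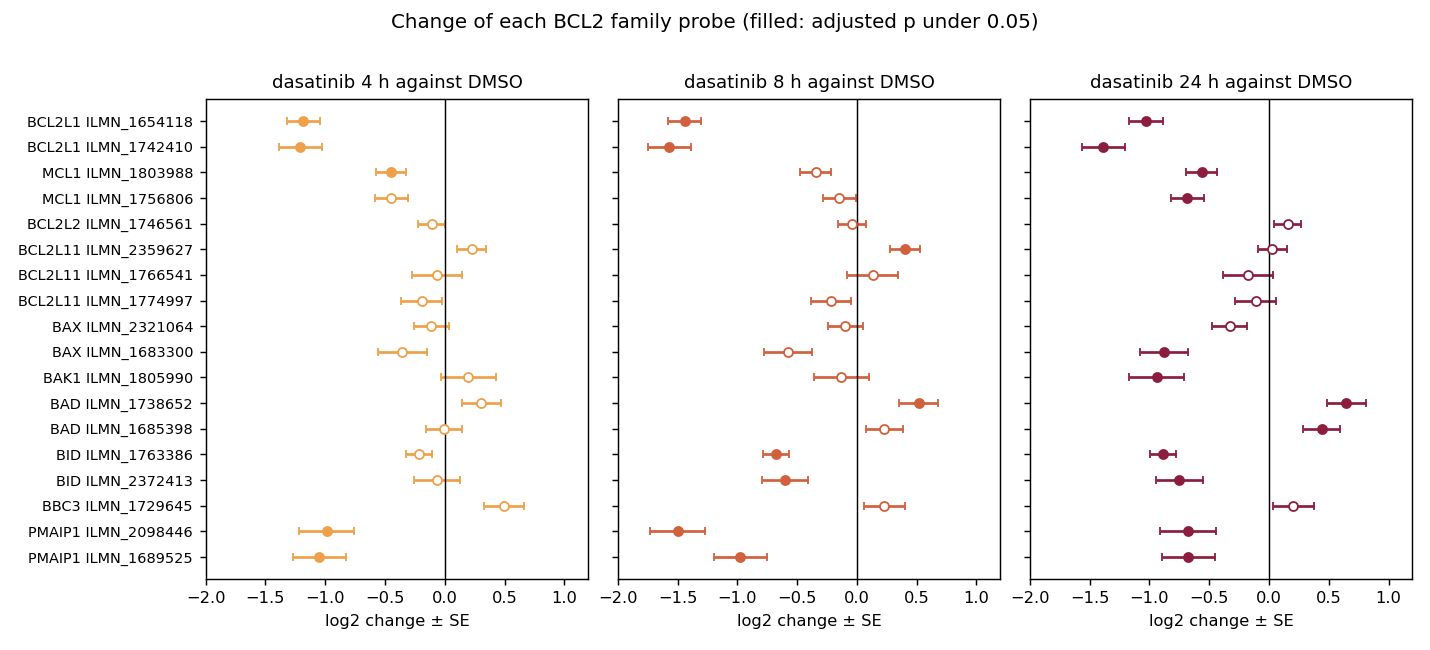
Log2 change with its SE (x axis) of each of the 18 member probes (rows) against DMSO after 4 h, 8 h and 24 h of dasatinib, with 3 arrays per group. Called probes number 5 at 4 h, all lower, and 12 at 24 h, of which only the 2 BAD probes lie to the right of 0. BAD ILMN_1685398 passed the detection filter only through the 24 h group, and BCL2L1 ILMN_1742410 only through DMSO, the groups where they are high.

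BCL2L1, which encodes the pro-survival protein BCL-XL, fell in dasatinib at every time, with changes of -1.18 at 4 h, -1.44 at 8 h and -1.03 at 24 h on probe ILMN_1654118. Its arrays read 10.95, 10.98 and 10.91 in DMSO, 9.62, 9.85 and 9.81 at 4 h, 9.55, 9.62 and 9.34 at 8 h, and 9.98, 10.17 and 9.61 at 24 h. No dasatinib array reached the lowest DMSO array at any time. With an SE of 0.14 for each change, these were 2.27-fold (adjusted p = 0.00028), 2.72-fold (2.3e-05) and 2.04-fold lower (7.4e-05) than DMSO. In the signals as deposited, before background correction, the same probe gave 956, 1292 and 906 intensity units after 24 h of dasatinib, against 2011, 2415 and 2624 in DMSO.

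The other BCL2L1 probe, ILMN_1742410, had arrays at 6.64, 6.82 and 6.73 in DMSO, 5.29, 5.85 and 5.43 at 4 h, 4.80, 5.24 and 5.44 at 8 h, and 5.50, 5.13 and 5.40 at 24 h. All 9 dasatinib arrays lay below all DMSO arrays. However, it was detected on only 2 of 3 arrays at each dasatinib time. It so passed the detection filter through the DMSO group alone, where it is high. To the calls of ILMN_1654118 those of this probe add no support, since they are not independent of that filter. Its changes were -1.21 at 4 h (SE 0.18, adjusted p = 0.0014), -1.57 at 8 h (7.5e-05) and -1.38 at 24 h (5.4e-05), and without the detection filter the adjusted p were 0.0037, 0.0002 and 0.00014. Across the 12 arrays the 2 probes correlated at a Pearson r of 0.89, a description of arrays that share group and culture conditions. Between times, ILMN_1654118 was 0.41 higher at 24 h than at 8 h (SE 0.14, adjusted p = 0.041), with overlapping arrays, and ILMN_1742410 was 0.19 higher (SE 0.18, adjusted p = 0.48). That call between times was lost without any 1 of 7 arrays (DMSO A, B or C, 8 h A or C, 24 h A or B), at changes of 0.29 to 0.44 and adjusted p of 0.052 to 0.16, and also without the detection filter (0.084), with the mean of the 2 probes (0.063) and with only the groups compared in the fit (0.094). The BCL2L1 changes against DMSO stayed called under each of the alternatives tried, though the size for ILMN_1742410 depended on the background correction as given further on.

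The 250 bases before the outermost RefSeq start of BCL2L1 (GRCh38.p14, chr20:31723964-31724213, minus strand) are shown because BCL2L1 had the largest moderated F of the members. Both strands of each window shown were searched for the letters TTCNNNGAA, known to be bound by STAT5 proteins. The search also took TGTTTAC, a core bound by FOXO factors. For GATA factors it took AGATAA. The E-box CACGTG and the GC box GGGCGG completed the set, and matches stand in capitals. This window held none.
BCL2L1: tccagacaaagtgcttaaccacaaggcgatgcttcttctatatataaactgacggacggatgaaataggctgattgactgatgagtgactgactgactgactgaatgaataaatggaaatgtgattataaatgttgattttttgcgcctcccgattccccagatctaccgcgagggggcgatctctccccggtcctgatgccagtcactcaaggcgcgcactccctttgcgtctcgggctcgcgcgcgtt

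MCL1, which encodes a pro-survival protein with a short half-life, was lower after 24 h of dasatinib on both of its probes. For ILMN_1803988 the arrays read 8.97, 9.23 and 9.16 in DMSO, 8.77, 8.71 and 8.53 at 4 h, 8.91, 8.71 and 8.70 at 8 h, and 8.76, 8.53 and 8.38 at 24 h. Each dasatinib array lay below each DMSO array. The change was -0.56 at 24 h (SE 0.13, 1.48-fold lower, adjusted p = 0.0029), -0.35 at 8 h (adjusted p = 0.066) and -0.45 at 4 h (adjusted p = 0.049). The call at 4 h was lost without any 1 of 10 arrays (all DMSO, 4 h and 8 h arrays and 24 h B), at changes of -0.53 to -0.38 and adjusted p of 0.052 to 0.16, and also with median scaling (0.076), without the detection filter (0.092) and with only the groups compared (0.091). The change at 8 h passed under 7 alternatives at adjusted p of 0.024 to 0.049 (no background correction, an offset of 50, median scaling, the authors' value table without and with a replicate block, the brightest probe per gene, and a trend and robust prior).

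MCL1 probe ILMN_1756806 read 6.89, 7.01 and 7.07 in DMSO, 6.32, 6.88 and 6.43 at 4 h, 6.80, 6.87 and 6.85 at 8 h, and 6.43, 6.25 and 6.24 at 24 h. The 24 h arrays were clear of all DMSO and 8 h arrays, and the 8 h arrays lay just under DMSO. Its change at 24 h was -0.68 against DMSO (SE 0.14, 1.60-fold lower, adjusted p = 0.0014) and -0.53 against 8 h (adjusted p = 0.012). At 4 h it differed from DMSO by -0.45 (SE 0.14, adjusted p = 0.071) and at 8 h by -0.15 (adjusted p = 0.48). Without array B of the 4 h group the 4 h change became -0.62 and passed (adjusted p = 0.0093). With median scaling in place of quantile normalization the 24 h against 8 h difference did not pass (adjusted p = 0.18).

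BCL2L2, which encodes the pro-survival protein BCL-w, was not called at any time. Its arrays spanned 9.12 to 9.21 at 4 h, 9.10 to 9.39 at 8 h and 9.26 to 9.57 at 24 h, against 9.21 to 9.37 in DMSO. The changes against DMSO were -0.11 (95% confidence interval -0.36 to 0.14, adjusted p = 0.66), -0.04 (-0.29 to 0.21, adjusted p = 0.84) and 0.16 (-0.09 to 0.40, adjusted p = 0.28). These intervals exclude falls of the size seen for BCL2L1 and leave room for smaller changes either way. The 24 h arrays were 0.27 higher than the 4 h arrays (adjusted p = 0.083), a difference that passed without background correction (0.042), in the authors' value table without and with a replicate block (0.034 and 0.038) and without 24 h array A (0.042).

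**Figure D2:**
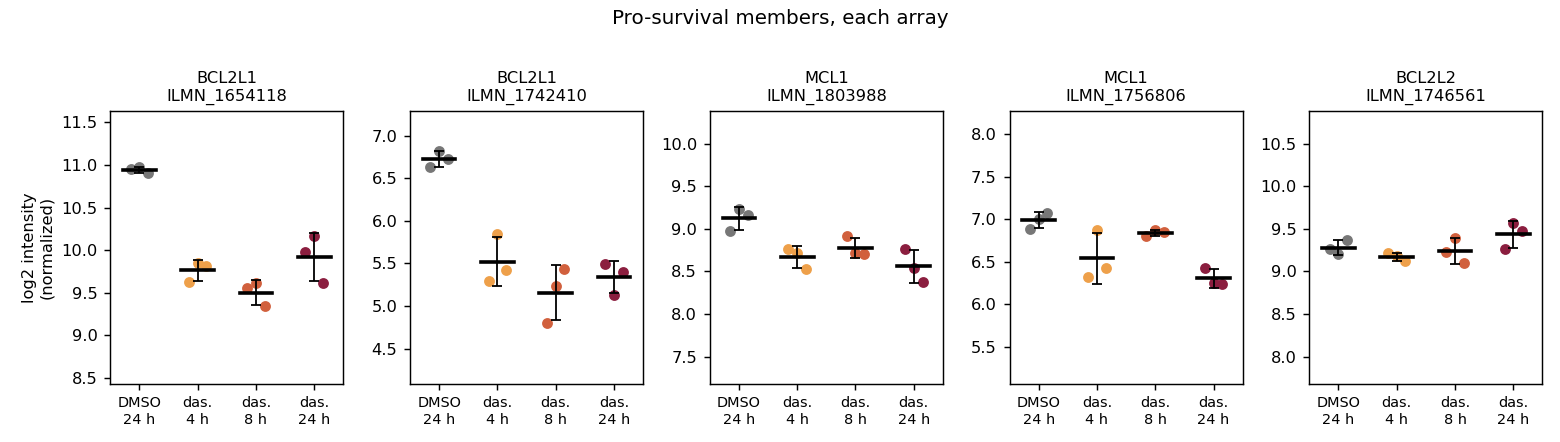
Normalized log2 intensity (y axis) of the 5 probes for the pro-survival members on each array, in DMSO and after 4 h, 8 h and 24 h of dasatinib; dots are arrays, bars means and error bars SD (3 arrays per group, each axis spanning the same number of log2 units). On both BCL2L1 and both MCL1 probes every dasatinib array lies below every DMSO array, while the BCL2L2 groups overlap except between 24 h and 4 h. BCL2L1 ILMN_1742410 passed the detection filter only through DMSO, where it is high.

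Among the BH3-only members PMAIP1, which encodes NOXA, a protein that binds mainly MCL-1, fell at all 3 times, with the smallest change from DMSO at 24 h on both probes. Probe ILMN_2098446 gave 7.81, 7.97 and 8.15 in DMSO, 7.26, 6.66 and 7.05 at 4 h, 6.27, 6.76 and 6.41 at 8 h, and 7.37, 7.74 and 6.79 at 24 h. No dasatinib array overlapped DMSO, and the 24 h arrays spread most. The change from DMSO was -0.99 at 4 h (SE 0.23, 1.98-fold lower, adjusted p = 0.021), -1.50 at 8 h (2.82-fold, adjusted p = 0.00061) and -0.68 at 24 h (1.60-fold, adjusted p = 0.029).

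PMAIP1 probe ILMN_1689525, detected on 10 of 12 arrays, gave 6.70, 6.15 and 6.42 in DMSO, 5.45, 5.35 and 5.32 at 4 h, 5.84, 5.41 and 5.09 at 8 h, and 6.00, 5.96 and 5.28 at 24 h. Again each dasatinib array lay below each DMSO array. Its changes were -1.05 (SE 0.22, adjusted p = 0.013), -0.98 (adjusted p = 0.0072) and -0.68 (adjusted p = 0.025). Between 8 h and 24 h, ILMN_2098446 was 0.82 higher at 24 h (SE 0.23, adjusted p = 0.018, arrays not overlapping), and ILMN_1689525 was 0.30 higher (SE 0.22, adjusted p = 0.34). Neither probe was called for 24 h against 4 h, with ILMN_2098446 at 0.31 (adjusted p = 0.32) and ILMN_1689525 at 0.37 (adjusted p = 0.21). Without 24 h array C that difference of ILMN_1689525 was 0.60 and passed (adjusted p = 0.043). Both 8 h changes stayed called under each alternative tried. For ILMN_2098446 the call at 4 h was lost without DMSO B or C or 4 h B or C (-1.02 to -0.82, adjusted p 0.053 to 0.087), at 24 h without DMSO B or C or 24 h A or C (-0.71 to -0.42, 0.053 to 0.12), and for 24 h against 8 h without 8 h A or C or 24 h A or B (0.60 to 0.79, 0.054 to 0.075). For ILMN_1689525 the 4 h call was lost without DMSO A (-0.91, adjusted p = 0.054) and the 24 h call without DMSO A or C or 24 h C (-0.68 to -0.44, 0.057 to 0.11). Without the detection filter the 4 h and 24 h calls of ILMN_2098446 (0.053 and 0.073) and the 24 h call of ILMN_1689525 (0.062) were lost.

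The PMAIP1 window (chr18:59899746-59899995, plus strand, 72.8% GC) is shown as that of the other member whose probes were all called lower at each time, and it held 4 matches to the GC box letters, in capitals, and none to the other motifs.
PMAIP1: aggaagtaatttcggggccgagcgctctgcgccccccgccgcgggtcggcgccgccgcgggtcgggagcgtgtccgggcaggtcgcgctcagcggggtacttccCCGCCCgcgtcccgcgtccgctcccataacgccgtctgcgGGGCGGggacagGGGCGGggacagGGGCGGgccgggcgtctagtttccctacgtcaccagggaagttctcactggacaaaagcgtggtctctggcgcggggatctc

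BBC3, which encodes the BH3-only protein PUMA, was not called. Its arrays gave 6.93, 7.50 and 7.33 at 4 h, 6.87, 6.91 and 7.19 at 8 h and 6.73, 7.10 and 7.05 at 24 h, against 6.72, 6.57 and 6.98 in DMSO. The groups overlapped at every time. The largest difference from DMSO was 0.50 at 4 h (SE 0.17, 95% confidence interval 0.12 to 0.87, adjusted p = 0.11), followed by 0.23 at 8 h (adjusted p = 0.37) and 0.20 at 24 h (adjusted p = 0.35). Without 4 h array A the 4 h difference was 0.66 and passed (adjusted p = 0.04).

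BCL2L11, which encodes BIM, was higher at 8 h on 1 of its 3 probes. Probe ILMN_2359627 read 7.04, 7.15 and 7.03 in DMSO, 7.07, 7.30 and 7.53 at 4 h, 7.59, 7.40 and 7.45 at 8 h, and 7.00, 7.11 and 7.19 at 24 h. All 8 h arrays lay above all DMSO arrays and all 24 h arrays, while the 4 h and 24 h groups overlapped DMSO. The change was 0.40 at 8 h (SE 0.12, 1.32-fold, adjusted p = 0.032), 0.22 at 4 h (adjusted p = 0.34) and 0.03 at 24 h (95% confidence interval -0.24 to 0.30, adjusted p = 0.87), and it was -0.38 at 24 h against 8 h (adjusted p = 0.036).

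The remaining BCL2L11 probes, ILMN_1766541 (detected on 10 of 12 arrays) and ILMN_1774997 (7 of 12), had no call, with values of 5.05 to 5.93 and 5.06 to 5.79. Their changes at 4 h, 8 h and 24 h were -0.07, 0.13 and -0.18 for ILMN_1766541 (SE 0.21, adjusted p 0.91, 0.70 and 0.52) and -0.19, -0.22 and -0.11 for ILMN_1774997 (SE 0.17, adjusted p 0.60, 0.40 and 0.63). The mean of the 3 probes did not pass at 8 h (0.11, adjusted p = 0.50). Across 12 arrays the 3 probes correlated with each other at 0.31, -0.19 and -0.28. The 8 h call of ILMN_2359627 was lost without any 1 DMSO or 8 h array (0.35 to 0.45, adjusted p 0.05 to 0.10), and its call between 24 h and 8 h without any 8 h array or 24 h A or B (-0.42 to -0.32, 0.05 to 0.12). Both calls were also lost with median scaling (0.36 at 8 h, 0.42 between times), without the detection filter (0.06 and 0.069) and with a trend and robust prior (0.059 and 0.069), and the call between times with the replicate block on the authors' table (0.052). Without DMSO array A the 8 h change of ILMN_1774997 was -0.44 and passed (adjusted p = 0.035).

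The BCL2L11 window (chr2:111120664-111120913, plus strand, 76.8% GC) is shown because the FOXO letters, present in 2.98% of all promoters, occurred in it and in no other of the 7 outermost member windows, 223 to 217 bases before the start on the reverse strand. Its other 3 capital runs are GC boxes. The match is a description of letters.
BCL2L11: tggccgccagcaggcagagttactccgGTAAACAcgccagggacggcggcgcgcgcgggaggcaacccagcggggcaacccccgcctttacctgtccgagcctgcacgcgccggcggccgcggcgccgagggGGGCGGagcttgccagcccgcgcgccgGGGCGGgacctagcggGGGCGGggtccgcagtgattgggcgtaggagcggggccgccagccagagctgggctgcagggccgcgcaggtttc

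BID, which encodes a BH3-only protein that caspase 8 cleaves into its active form, fell at 8 h and 24 h on both probes. Probe ILMN_1763386 gave 8.22, 8.18 and 8.20 in DMSO, 8.07, 7.98 and 7.90 at 4 h, 7.43, 7.52 and 7.61 at 8 h, and 7.17, 7.26 and 7.51 at 24 h. The DMSO arrays lay above all dasatinib arrays, and the 4 h arrays above the 8 h and 24 h arrays. Relative to DMSO the change was -0.22 at 4 h (SE 0.11, adjusted p = 0.29), -0.68 at 8 h (1.60-fold, adjusted p = 0.00082) and -0.89 at 24 h (1.85-fold, adjusted p = 3.5e-05). Against 4 h it changed by -0.46 at 8 h (adjusted p = 0.024) and -0.67 at 24 h (adjusted p = 0.00042), and the difference of -0.21 between 24 h and 8 h did not pass (adjusted p = 0.17).

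BID probe ILMN_2372413 gave 6.60, 6.87 and 6.29 in DMSO, 6.39, 6.38 and 6.80 at 4 h, 5.62, 6.31 and 6.03 at 8 h, and 5.97, 5.67 and 5.87 at 24 h. Its 24 h arrays were below all DMSO and 4 h arrays, while 8 h array B overlapped DMSO. The change was -0.07 at 4 h (adjusted p = 0.90), -0.60 at 8 h (adjusted p = 0.042) and -0.75 at 24 h (SE 0.20, 1.68-fold, adjusted p = 0.0072), and 24 h against 4 h gave -0.68 (adjusted p = 0.015). Both probes kept the 24 h call under each alternative tried. The 8 h call of ILMN_2372413 was lost without any 1 of 6 arrays (DMSO A or B, 8 h A or C, 24 h A or C), at -0.62 to -0.42 and adjusted p of 0.051 to 0.15, and its 24 h against 4 h call without 4 h C or 24 h B (-0.60 to -0.55, 0.057 to 0.063). The 8 h call was also lost in the authors' value table (0.082), without the detection filter (0.096) and with only the groups compared (0.075). The 24 h against 4 h call was kept in the authors' value table (0.044) and lost there with the replicate block (0.06). For ILMN_1763386 the 8 h against 4 h call was lost without 4 h A or B or 8 h A or B (-0.46 to -0.42, 0.062 to 0.089), with median scaling (0.091) and with only the groups compared (0.066).

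BAD encodes a BH3-only protein that binds BCL-XL and is held inactive by phosphorylation. It was the 1 member gene with a probe called higher at 24 h. Probe ILMN_1738652 gave 7.41, 8.13 and 7.64 in DMSO, 7.98, 8.12 and 7.98 at 4 h, 8.22, 8.26 and 8.24 at 8 h, and 8.27, 8.25 and 8.59 at 24 h. The 8 h and 24 h arrays lay above all DMSO arrays, by little for DMSO array B. Its change was 0.30 at 4 h (SE 0.16, adjusted p = 0.32), 0.52 at 8 h (adjusted p = 0.037) and 0.65 at 24 h (1.57-fold, adjusted p = 0.006).

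BAD probe ILMN_1685398 was detected on 1 of 3 DMSO arrays, no 4 h array, 1 of 3 8 h arrays and all 3 24 h arrays. It passed the detection filter only through the 24 h group, where it is high, so its calls at 24 h are not independent of that filter and add no support to those of ILMN_1738652. It read 4.98, 5.32 and 4.88 in DMSO, 5.06, 5.15 and 4.95 at 4 h, 5.14, 5.15 and 5.58 at 8 h, and 5.45, 5.66 and 5.39 at 24 h. Only the 24 h arrays lay above all DMSO arrays. The fitted change at 24 h was 0.44 (SE 0.15, adjusted p = 0.031, and 0.067 without the detection filter), and against the undetected 4 h group it was at least 1.15-fold higher at 24 h (adjusted p = 0.035, and 0.075 without the filter), with the 4 h arrays raised to the lowest detected signal where they lay below it. The 24 h call of ILMN_1738652 was kept under each alternative tried. Its 8 h call was lost without DMSO A or C or any 8 h array (0.36 to 0.53, adjusted p 0.076 to 0.14), with median scaling (0.29), without the detection filter (0.082) and with only the groups compared (0.076). Its 4 h change passed without DMSO array B (0.51, adjusted p = 0.049). For ILMN_1685398 the 24 h call was lost without DMSO A or C or 24 h A or B (0.35 to 0.47, 0.054 to 0.12), the call against 4 h without 4 h A or C or 24 h A or B (0.37 to 0.47, 0.061 to 0.12). Both were also lost without background correction, with an offset of 50, with a trend and robust prior and in the authors' value table without and with a replicate block, at adjusted p of 0.073 to 0.24.

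The effector genes were lower at 24 h on 1 of 2 BAX probes and on the BAK1 probe. BAX probe ILMN_1683300 read 7.03, 6.94 and 7.14 in DMSO, 7.10, 6.48 and 6.47 at 4 h, 6.82, 6.47 and 6.09 at 8 h, and 6.28, 5.96 and 6.23 at 24 h. The 8 h and 24 h arrays were below all DMSO arrays, and 4 h array A was not. The change was -0.88 at 24 h (SE 0.20, 1.84-fold lower, adjusted p = 0.0034), -0.58 at 8 h (adjusted p = 0.056) and -0.35 at 4 h (adjusted p = 0.36).

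BAX probe ILMN_2321064 read 9.32, 9.16 and 9.60 at 4 h, 9.18, 9.40 and 9.56 at 8 h and 9.17, 9.02 and 9.26 at 24 h, against 9.47, 9.31 and 9.64 in DMSO. Its 24 h arrays also lay below DMSO, but the change of -0.33 (SE 0.14, 95% confidence interval -0.64 to -0.01) did not pass (adjusted p = 0.080), and at 4 h and 8 h it was -0.11 (adjusted p = 0.74) and -0.10 (adjusted p = 0.68). It passed without background correction (0.033), with median scaling (0.02), with a trend and robust prior (0.036) and with the replicate block on the authors' table (0.0062), and the mean of the 2 probes passed too (-0.60, adjusted p = 0.0012). Whether the probes' changes differ was not tested, and they correlated at 0.37 over the 12 arrays. The 8 h change of ILMN_1683300 passed under 6 alternatives at adjusted p of 0.037 to 0.047 (no background correction, an offset of 50, median scaling, a detection limit of 0.01, the replicate block on the authors' table, and a trend and robust prior), without 4 h array A (0.029) and without 8 h array A (-0.76, adjusted p = 0.023).

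The BAX window (chr19:48954625-48954874, plus strand, 62.8% GC) is shown because it alone among the 7 outermost member windows held the E-box letters CACGTG, in 4 places (138 to 133, 93 to 88, 45 to 40 and 14 to 9 bases before the start). The E-box letters occur in 6.35% of all promoters. The third capital run is a GC box.
BAX: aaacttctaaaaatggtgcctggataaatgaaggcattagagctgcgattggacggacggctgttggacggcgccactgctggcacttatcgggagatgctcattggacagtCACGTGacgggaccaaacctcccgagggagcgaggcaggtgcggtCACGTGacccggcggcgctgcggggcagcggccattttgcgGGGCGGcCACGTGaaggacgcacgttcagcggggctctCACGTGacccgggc

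BAK1, which encodes the effector BAK that resides in the outer membrane, read 6.44, 7.16 and 6.73 in DMSO, 6.53, 7.36 and 7.04 at 4 h, 7.01, 6.38 and 6.55 at 8 h, and 5.89, 5.72 and 5.91 at 24 h. The 24 h arrays lay below the arrays of all other groups, which overlapped each other. Its change at 24 h was -0.94 against DMSO (SE 0.23, 1.92-fold lower, adjusted p = 0.0052), -0.81 against 8 h (adjusted p = 0.02) and -1.14 against 4 h (adjusted p = 0.002), while 4 h and 8 h differed from DMSO by 0.20 (adjusted p = 0.71) and -0.13 (adjusted p = 0.73). The 24 h against 8 h call was lost without 8 h A or 24 h B (-0.75 to -0.63, adjusted p 0.063 to 0.079), with median scaling (0.067) and in the authors' value table without (-0.16, adjusted p = 0.082) and with a replicate block (0.095), and the other BAK1 calls were kept under each alternative tried.

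**Figure D3:**
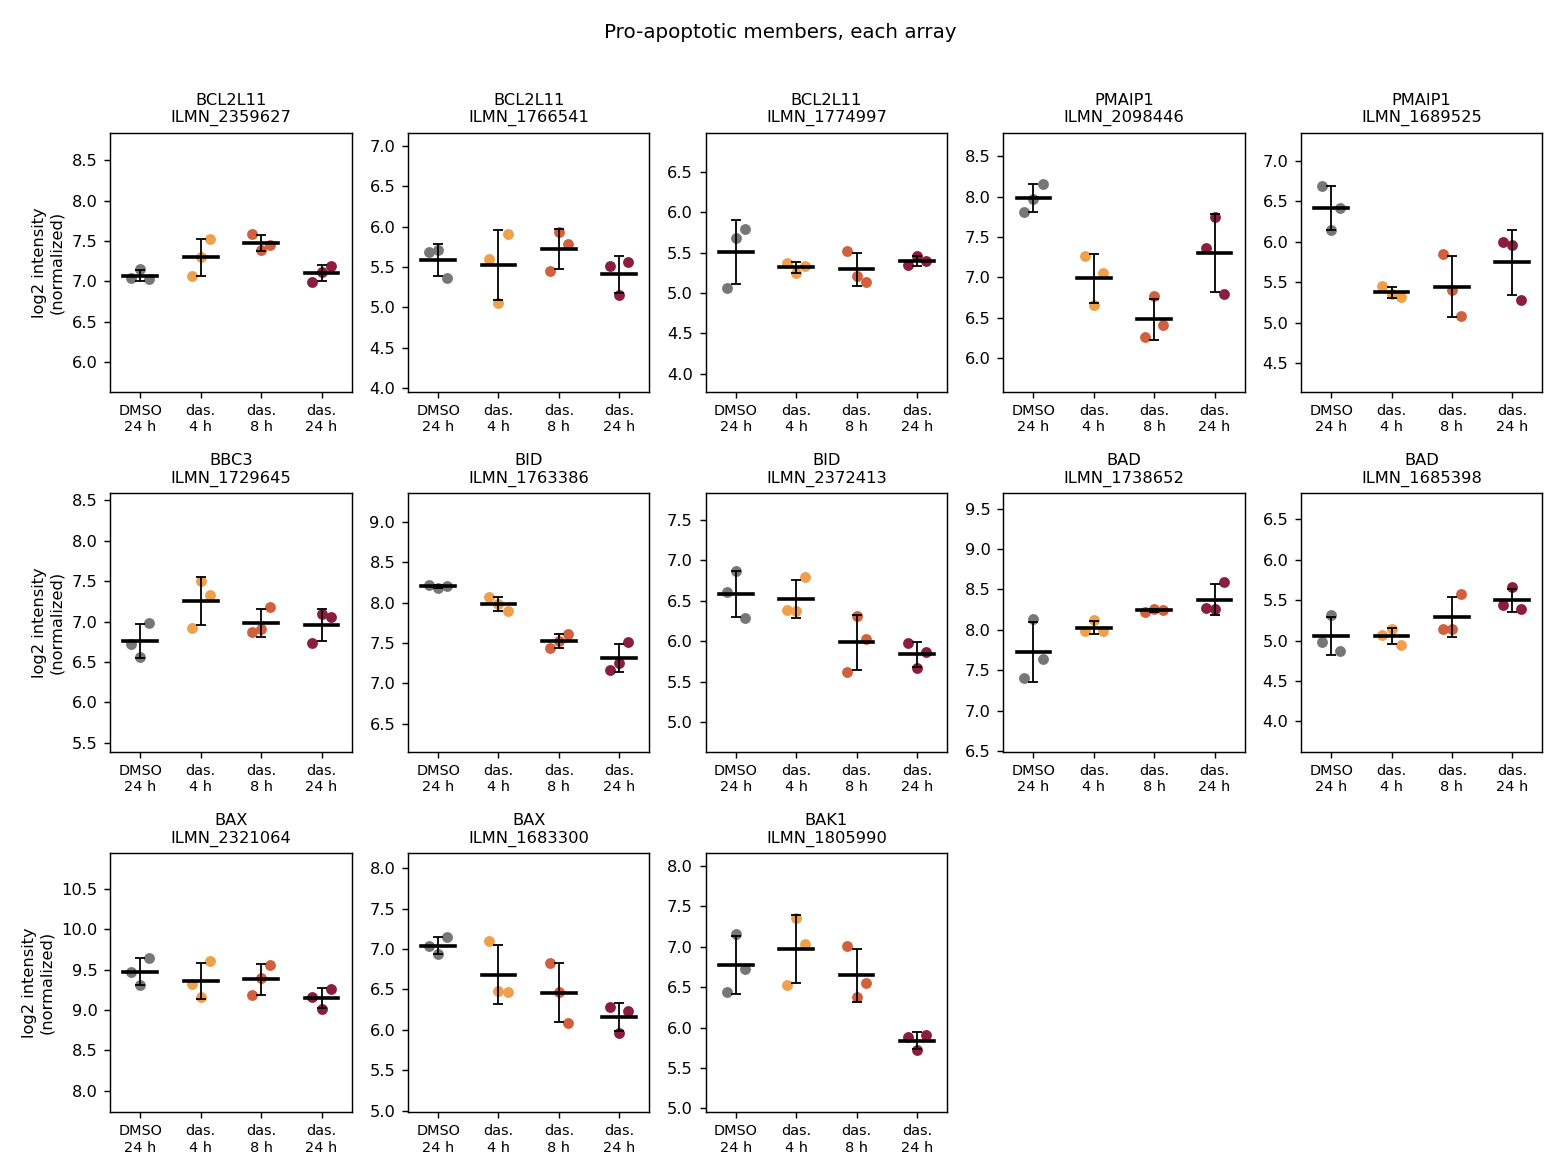
Normalized log2 intensity (y axis) of the 13 probes for the BH3-only and effector members on each array, in DMSO and after 4 h, 8 h and 24 h of dasatinib; dots are arrays, bars means and error bars SD (3 arrays per group). The PMAIP1 probes are lower than DMSO at all times, and BID and BAK1 are lowest at 24 h, where BAK1 lies at 5.72 to 5.91. Both BAD probes are highest at 24 h, but ILMN_1685398 passed the detection filter only through that group.

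Fold sizes depended on the processing, whereas the directions of the called changes did not. Without background correction the 24 h change was -0.94 for BCL2L1 ILMN_1654118 and -0.50 for ILMN_1742410. It was -0.38 for BAK1, -0.39 for BAX ILMN_1683300 and -0.57 for BID ILMN_1763386. In the authors' deposited value table, made by steps not given in the sources used here, the 24 h change was -0.90 for BCL2L1 ILMN_1654118, close to -1.03, but -0.25 in place of -1.38 for ILMN_1742410. There MCL1 changed by -0.35 and -0.17, PMAIP1 by -0.26 and -0.12, BID by -0.37 and -0.15, BAX ILMN_1683300 by -0.21, BAK1 by -0.20 and BAD ILMN_1738652 by 0.30, each still at an adjusted p under 0.05 in that table. BAD ILMN_1685398 changed by 0.06 and did not pass (adjusted p = 0.18). Which steps of that table set these sizes was not tested.

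Between dasatinib times, hours in drug and hours in low serum rise together and cannot be told apart. For 8 h against 4 h limma called 1 of 18 member probes. It called 5 for 24 h against 8 h and 4 for 24 h against 4 h. Over all probes the called share was 7.46%, 30.7% and 39.2%, above the member share in each comparison. The call for 8 h against 4 h was BID ILMN_1763386, lower at 8 h. At 24 h against 8 h, BCL2L1 ILMN_1654118 and PMAIP1 ILMN_2098446 were higher and MCL1 ILMN_1756806, BCL2L11 ILMN_2359627 and BAK1 were lower. At 24 h against 4 h, BAK1 and both BID probes were lower and BAD ILMN_1685398 was higher. Without 8 h array A or 24 h array B the 5 calls for 24 h against 8 h dropped to 1, and without 8 h C or 24 h A they dropped to 2. Without 24 h array B the 4 calls against 4 h dropped to 2, and without 4 h A, 8 h A or 8 h B no call was left for 8 h against 4 h.

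By sequence, 8 member genes had a promoter in the RefSeq table used, with 14 starts in all, of which 7 were the outermost start of their gene. MCL1 and BCL2L2 had none there. The GC content of the outermost windows ranged from 47.6% (BID) to 76.8% (BCL2L11), against a median of 58.0% and quartiles of 46.4% and 68.0% over 35114 promoters. Of the 7 windows 5 held the GC box letters, which 42.6% of all promoters hold. None held the letters TTCNNNGAA or AGATAA, found in 6.57% and 9.17% of all promoters, which says only that these letters are not in these windows. No matches of different motifs overlapped.

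Other genes of the pathway were described from lists with 1 probe per gene, so their counts are to be read against called shares of genes. With the brightest probe per gene these shares were 11.9% at 4 h and 54% at 24 h. At 8 h the share was 32.8% with the mean of a gene's probes. Of 17 further BCL2 family and BH3-related genes, 10 were measured. BNIP3L, a mitophagy receptor with a BH3-like region, rose by 1.39 at 24 h (SE 0.17, 2.61-fold, adjusted p = 3.6e-05) and by 0.64 at 8 h (adjusted p = 0.017). BCL2 itself, the founding pro-survival member, changed by -0.75 at 24 h (SE 0.17, adjusted p = 0.0034) and -0.62 at 8 h (adjusted p = 0.022). The probe was dim and detected on only 2 of 3 arrays at each of these times, so the sizes are uncertain. The other BCL2 probe changed by -0.86 at 24 h. At 24 h BCL2L12 changed by -0.54 (SE 0.11, adjusted p = 0.0018) and BCL2L13 by 0.49 (SE 0.11, adjusted p = 0.0032). Called higher and lower were 0 and 1 genes at 4 h, 1 and 2 at 8 h, and 2 and 2 at 24 h, where the median change was 0.04. The lower gene at 4 h was MOAP1, whose protein binds BAX (-0.79, adjusted p = 0.0063). It is named after its value was seen. The 7 genes without a passing probe (BCL2A1, BCL2L10, BCL2L14, BCL2L15, BIK, BMF and HRK) had 14 probes, each detected on at most 5 of 12 arrays.

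Downstream of the outer membrane, 12 of 15 genes of the apoptosome, caspases and released mitochondrial proteins were measured. Called higher and lower were 0 and 1 at 4 h, 1 and 2 at 8 h, and 1 and 4 at 24 h. AIFM1, counted lower at 24 h (-0.34, adjusted p = 0.042), is named because its other probe changed the opposite way, by 0.48. DFFA, the inhibitor and chaperone of the caspase-activated nuclease, changed by -1.22 at 24 h (SE 0.10, 2.34-fold lower, adjusted p = 1.4e-06), with its other probes at -0.80 and -0.17. The nuclease DFFB (-0.62, adjusted p = 0.0016) and cytochrome c, CYCS (-0.62, adjusted p = 0.0011), were lower too, and the executioner caspase CASP6 was 0.44 higher at 24 h (adjusted p = 0.015) and 0.91 higher at 8 h (adjusted p = 0.00035). Of 7 inhibitors of apoptosis proteins 4 were measured, and BIRC2 (cIAP1) alone was called, higher at 24 h (0.70, SE 0.18, adjusted p = 0.0059). Of 11 mitochondrial outer membrane partners and fusion or fission genes 10 were measured, with 0 higher and 5 lower at 24 h, 0 and 2 at 8 h and none at 4 h. TOMM40 and TOMM22, parts of the outer membrane import pore, changed by -1.58 (SE 0.09, 3.00-fold lower, adjusted p = 5.4e-08) and -0.69 (SE 0.10, adjusted p = 0.00011) at 24 h. The fusion genes OPA1 and MFN2 changed by -0.86 (adjusted p = 6.4e-05) and -0.69 (adjusted p = 0.00033). The list's median at 24 h, over 1 probe per gene, was -0.32, against -0.01 over all probes, several of which can share a gene. The called share of the list was near that of all genes given above. Whether the list differs from all genes was not tested.

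Among regulators of BCL2 family transcription 16 of 19 were measured, and called higher and lower were 4 and 3 at 4 h, 2 and 5 at 8 h, and 5 and 6 at 24 h. EGR1, an immediate early factor induced by ERK signalling, changed by -3.60 at 24 h (SE 0.19, adjusted p = 4.4e-08), and TRIB3, a stress-induced pseudokinase, by -1.40 (SE 0.12, adjusted p = 1.8e-06). FOXO3, a factor known to act on BCL2L11, was 1.80 higher at 24 h (SE 0.13, 3.48-fold, adjusted p = 4.5e-07) and 0.82 higher at 4 h (adjusted p = 0.0019), and FOXO4 was 1.19 higher at 24 h (SE 0.13, adjusted p = 1.5e-05). Among regulators of BCL2 family proteins 20 of 22 were measured, with 0 higher and 3 lower at 4 h, 2 and 3 at 8 h, and 4 and 8 at 24 h. AKT1, counted lower at 24 h (-0.37, adjusted p = 0.016), is named because its other probes differed in direction (-0.28 and 0.49). PIM2 and PIM1, kinases that phosphorylate BAD and whose genes are STAT5 targets, changed by -2.26 (SE 0.10, 4.79-fold lower, adjusted p = 7.5e-09) and -1.73 (SE 0.14, 3.31-fold lower, adjusted p = 1.6e-06) at 24 h. MAPK3, which encodes the kinase ERK1, was 0.95 higher (SE 0.12, adjusted p = 3.8e-05), and USP9X, a deubiquitinase that stabilises MCL-1 protein, was 0.88 higher (SE 0.11, adjusted p = 3.4e-05). These are transcript levels and carry no measure of protein or phosphorylation.

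**Figure D4:**
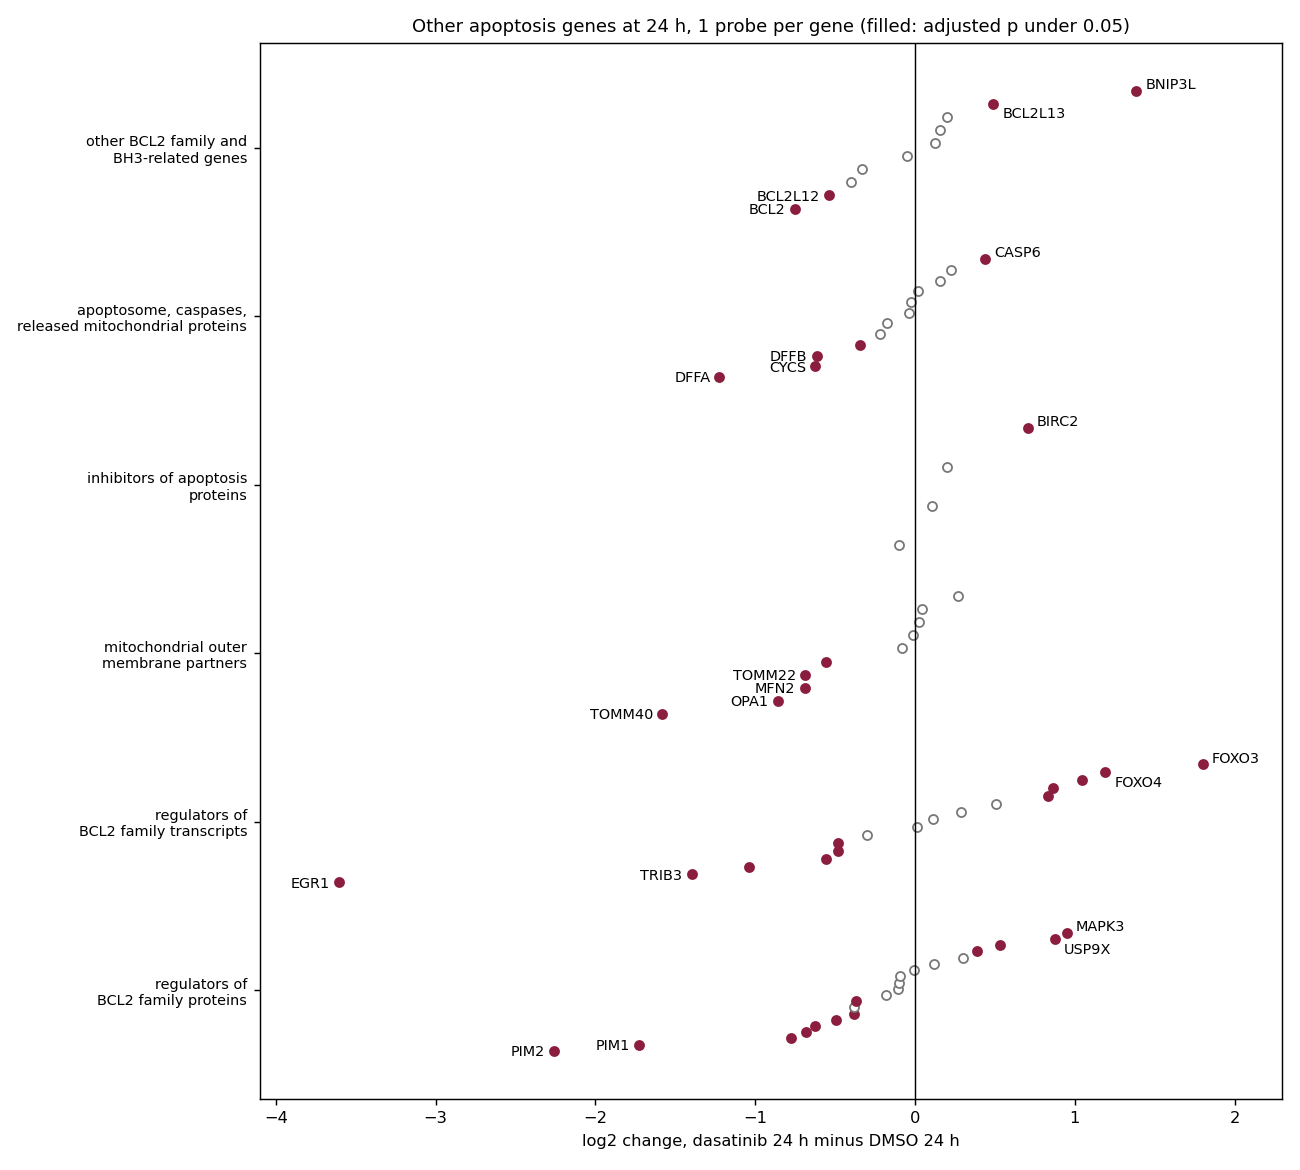
Log2 change after 24 h of dasatinib against DMSO (x axis) of genes in 6 lists around the BCL2 family (rows), 1 probe per gene; filled points were called and the named ones are labelled. TOMM40 at -1.58 leads the outer membrane list, in which 5 of 10 genes were called, all lower. The transcription and protein regulators spread from EGR1 at -3.60 to FOXO3 at 1.80.

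By similarity over the 12 arrays, the probes of other named genes most like BCL2L1 ILMN_1654118 were those of C15orf39 (Pearson r 0.962), E2F5 (0.953) and SINHCAF (0.953). Most like BCL2L1 ILMN_1742410 were SLC25A25 (0.960), the non-coding RNA LINC01132 (0.956) and BRPF1 (0.948). Nearest to BID ILMN_1763386 were RNF126 (0.985), CHRNA5 (0.977) and TWNK (0.975). TWNK changed by -0.66 at 4 h, -1.64 at 8 h and -2.05 at 24 h, in the same time order as BID with larger steps. These correlations describe 12 arrays that fall into 4 groups and share depth and normalization.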

How the data were processed

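Total RNA of 12 K562 samples was measured on Illumina BeadChips. The authors deposited mean probe signals as intensity, not background-subtracted or normalized, and a detection p-value stands beside each one, per the file headers. They also deposited a value table on a log2-like scale, with equal medians of 7.84, made by steps not given in the sources used here, which served as an alternative. BMS in column names was taken to mean dasatinib, the 1 drug in the labels. Each signal column named its group and a letter but no replicate number, and 0 value columns were left unmapped.

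Signals were normalized with neqc in limma 3.58.1 (R 4.3.3), an offset of 16 and control moments that limma derives from detection p-values, and taken to log2. For dim probes, background correction enlarges changes and the offset shrinks them. A probe passed if all 3 arrays of some group had a detection p below 0.05. Group means were fitted to all 12 arrays (8 residual and 3.99 prior degrees of freedom), 6 comparisons and an F test were made, and two-sided moderated p-values were adjusted by Benjamini-Hochberg over 17625 probes. The number of arrays limits precision. The fit was tested on simulated data. Of 47314 probes 30108 named 1 gene, 8 several and 17198 none, per the platform annotation, which can be old.

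The members, lists and tests were chosen with earlier results of these data known. Named genes were all member probes, with every array for those called against DMSO or by the F test, and from each other list the 4 called genes with the largest change at 24 h, using the brightest passing probe of a gene. Likeness was taken for the 3 member probes with the largest F. Promoters are RefSeq windows of 250 bases before the start (GRCh38.p14), both strands searched. Alternatives covered background, offset, scaling, the filter, probe choice, the prior, the samples fitted, the authors' table and leaving out each array.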

Additional observations from a re-analysis of the deposited data

Results flagged for a closer look

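Values of 7 member genes differed between dasatinib times by the test of the difference itself. The limma fit set 3 arrays against 3, the later time minus the earlier. Hours in low serum rise with hours in drug, so their effects cannot be told apart here. Called member probes were 1 of 18 for 8 h against 4 h, 5 for 24 h against 8 h and 4 for 24 h against 4 h. These are 5.56%, 27.8% and 22.2%, against 7.46%, 30.7% and 39.2% of all probes. The differences below are of single probes, and whether the family differs from the background was not tested. The DMSO arrays enter the spread of the fit, and the BCL2L1 call was lost without any 1 of them. BID was lower at 24 h than at 4 h on both probes, with ILMN_1763386 at -0.67 and ILMN_2372413 at -0.68. For 8 h against 4 h ILMN_1763386 was called (-0.46) and ILMN_2372413 was not (-0.54, adjusted p = 0.12). BAK1 was lower at 24 h than at 8 h by -0.81 and than at 4 h by -1.14. Between 24 h and 8 h, BCL2L1 ILMN_1654118 differed by 0.41, PMAIP1 ILMN_2098446 by 0.82, MCL1 ILMN_1756806 by -0.53 and BCL2L11 ILMN_2359627 by -0.38. For BAD ILMN_1685398 the fitted 0.45 between 24 h and 4 h is no exact size, since the probe was undetected on the 4 h arrays and passed the detection filter only through the 24 h group. The bound is at least 1.15-fold higher. Of all these differences, the BAK1 and BID ILMN_1763386 differences between 24 h and 4 h were kept under each alternative tried.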

How the results depend on the processing

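Of 35 called member changes none reversed under 23 alternatives, 18 stayed called under all that gave a value and 17 were lost under at least 1. The 35 include the calls of BCL2L1 ILMN_1742410, all among the 18, and of BAD ILMN_1685398. Both probes passed the detection filter only through the group where they are high, so these calls add no support to the tally. Member calls against DMSO numbered 5 of 18 at 4 h, 8 at 8 h and 12 at 24 h. With 1 gene value from the brightest probe they were 3 of 10 at 4 h and 6 at 24 h (11.9% and 54% of all genes), and with the mean of a gene's probes 3, 4 and 7 of 10 (12.7%, 32.8% and 54.2%). Without the detection filter, where more probes are tested, they were 3 of 21 at 4 h, 5 at 8 h and 3 for 24 h against 8 h (2.15%, 7.34% and 9.48% of all probes). The gene-level fits gave 3 (mean) for 24 h against 8 h and 2 (brightest) for 24 h against 4 h (35.9% and 45.7% of all genes), and 7 of 10 for the F test under either (58% with the brightest probe, 59.1% with the mean). Median scaling called 2 for 24 h against 8 h and 0 for 8 h against 4 h (23% and 3.51% of all probes), where fitting only the groups compared also gave 0 (3.94%). Median scaling shifted the median of all probes by -0.15 at 8 h, where it called 0 member probes higher and 8 lower in place of 2 and 6, and over all probes moved the share of calls that were higher to 25.5% at 4 h and 22.7% at 8 h, against 43.9% and 49.98%. Without single arrays the counts ran from 3 to 5 at 4 h (3 without DMSO A, DMSO C or 4 h C), 5 to 9 at 8 h (5 without 8 h C), 9 to 12 at 24 h, 0 to 1 for 8 h against 4 h, 1 to 5 for 24 h against 8 h, 2 to 5 for 24 h against 4 h and 9 to 13 for the F test, with 4.94% to 7.61%, 18.7% to 24.6%, 42.2% to 47.9%, 4.02% to 7.3%, 23.3% to 30.9%, 33.8% to 38.8% and 43.6% to 49.5% of all probes called in the same order. The cause of these shifts was not tested.

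The labels number replicates 1 to 3 in each group, but name no source that same-numbered samples share. Deviations from group means correlated at -0.19 to 0.28 in same-number pairs, with 9 of 18 over 0.1, and at -0.40 to 0.23 in different-number pairs, with 3 of 36 over 0.1, and 10 of 12 samples correlated best with their own number. Since not every same-number pair exceeded 0.1, the numbers were not taken to pair the samples, although these values hint at a shared source. That rule does not exclude pairing. The main fit leaves the number out, so its p-values take no account of a shared source. A fit with the replicate number as a block was made on the authors' table, whose columns carry the numbers, an alternative added after seeing the data. A block by the letter of the signal columns was not fitted. The fit by number called 5, 9 and 12 members against DMSO at 4 h, 8 h and 24 h. Without the block that table gave 5, 8 and 11. For 24 h against 4 h the block called 3, against 4 without it, the loss being BID ILMN_2372413.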
